A study of Homo sapiens with 20 samples.

Results

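A set of 43 interferon-stimulated genes, named by symbol, was measured by RNA-seq in HEL, an established line from a human erythroleukaemia whose JAK2 carries the activating V617F change. They are 43 of the 55093 genes listed in the larger count tables, and each was present once in all 3 tables. The 20 libraries fell into 10 groups of 2. In 1 table cells were given 1 µM BCI, which inhibits the phosphatases DUSP6 and DUSP1, for 4 h or 48 h, with DMSO, the solvent, given to control cells for the same times. In another, cells were given 10 µM BI-D1870, which blocks the kinase RSK, the pair of 10 µM BI-D1870 and 1 µM BCI, or DMSO, each for 24 h. The last table held cells persistent in prolonged culture with ruxolitinib (RuxP) or fedratinib (FedP), both JAK2 inhibitors, and parental cells. All groups share the HEL background and its mutant JAK2. The sources used here do not say whether persistent cells still received inhibitor at harvest, and nothing says that the libraries of any group came from separate cultures, so the spread behind each p-value is that of these libraries alone and may be technical.

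Type I interferons bind the receptor pair IFNAR1 and IFNAR2, whose kinases TYK2 and JAK1 phosphorylate STAT proteins. The complex ISGF3, which holds STAT2 and IRF9, then binds interferon-stimulated response elements (ISRE) in the promoters of antiviral genes. Basal levels of many such genes are kept up without added interferon by IRF proteins and unphosphorylated STATs, and in myeloid neoplasms JAK2 signals largely through STAT5 and STAT3.

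RefSeq promoter windows of GRCh38.p14, 250 bases before to 50 after a gene's start, were found for 34 of the 43 genes. The core letters of the ISRE were searched as GAAA and GAAA with any 2 bases between them, or TTTC and TTTC likewise on the other strand. They stood in a window of 22 of these 34 genes (64.7%), against 4.38% of all genes with a window. Overlapping matches were allowed, and the matches describe letters only. The following stretches of 50 bases are shown because each carries at least 1 match of a gene on which the results turn, with IFIT1 as an example read on the other strand. Each runs 5′ to 3′ on the gene's strand, and capitals mark the matched letters.
IFI44L: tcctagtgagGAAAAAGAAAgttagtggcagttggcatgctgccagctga
IFITM1: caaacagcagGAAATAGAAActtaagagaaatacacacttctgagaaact
BST2: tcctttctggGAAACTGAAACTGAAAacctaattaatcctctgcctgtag
OAS3: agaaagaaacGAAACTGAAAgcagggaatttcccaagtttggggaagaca
IFITM3: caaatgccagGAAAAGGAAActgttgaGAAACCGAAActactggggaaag
IFI6: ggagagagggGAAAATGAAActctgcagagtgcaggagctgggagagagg
ISG15: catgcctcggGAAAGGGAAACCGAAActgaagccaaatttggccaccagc
IFIT1: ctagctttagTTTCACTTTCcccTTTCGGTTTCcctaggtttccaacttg

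The stretches lie at chr1:78620274-78620323 (IFI44L, plus strand), chr11:313990-314039 (IFITM1, plus), chr19:17405721-17405770 (BST2, minus), chr12:112938321-112938370 (OAS3, plus), chr11:320873-320922 (IFITM3, minus), chr1:27672309-27672358 (IFI6, minus), chr1:1013374-1013423 (ISG15, plus) and chr10:89392497-89392546 (IFIT1, plus). The stretches of BST2, IFITM3, ISG15 and IFIT1 hold both matches of their windows, which in BST2 and ISG15 overlap. Those of IFI44L, IFITM1, OAS3 and IFI6 hold 1 each, of 2, 2, 2 and 3 matches in the whole window.

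Without any added interferon, HEL cells already held unequal amounts of these transcripts. In DMSO-treated cells at 24 h, levels per kilobase of exon were highest for IFITM2, a membrane protein that blocks virus entry, at 121 ± 11 CPM per kb (SD, n = 2). Its neighbour IFITM3 followed at 50 ± 2.4 CPM per kb, then the RNA-editing enzyme ADAR at 46.4 ± 0.46 and the mitochondrial protein IFI6 at 30.7 ± 0.702 CPM per kb. EIF2AK2, the kinase PKR, and IFITM1 came next, each at 16.4 CPM per kb, with overlapping libraries. The lowest levels were those of OAS2 and OASL, of the oligoadenylate synthetase family, which reached at most 0.137 and 0.168 CPM in any library and were not tested in any table. The other 41 genes were tested in all 3 tables. In DMSO at 4 h IFITM2 again stood first, at 290 ± 6.63 CPM per kb, as it did in parental cells, at 106 ± 38.7 CPM per kb. Tables were scaled separately, so these levels set no difference between tables. IFITM1, IFITM2 and IFITM3 are near-identical neighbours on chromosome 11, and the GENCODE 29 model of IFITM2 (positions 307631 to 315272) contains that of IFITM1 (313506 to 315272), so how reads were divided among them is uncertain. On the same GRCh38 annotation OAS3 (ENSG00000111331) lies at chr12:112938352-112973249 on the plus strand, IRF7 (ENSG00000185507) at chr11:612553-615999 on the minus strand and BST2 (ENSG00000130303) at chr19:17402939-17405648 on the minus strand.

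Total counts per library were 63916850 to 84452743 in the BCI table, 54141164 to 70128404 in the BI-D1870 table and 51799814 to 79755715 in the table of persistent cells. A floor of 3 counts corresponded to 0.0351 to 0.0604 CPM. Erythroid and megakaryocyte markers summed to between 2360 and 6390 CPM, with 11 of 12 detected in each table and GP1BB at 0. Interferon genes themselves were nearly silent: of 10 ligand genes, 9 in the BCI table and 10 in each of the others stayed under 1 CPM in every library, and IFNB1 and IFNE had 0 counts throughout. In bulk RNA, fewer cells expressing a gene and less RNA per cell cannot be told apart.

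**Figure D1:**
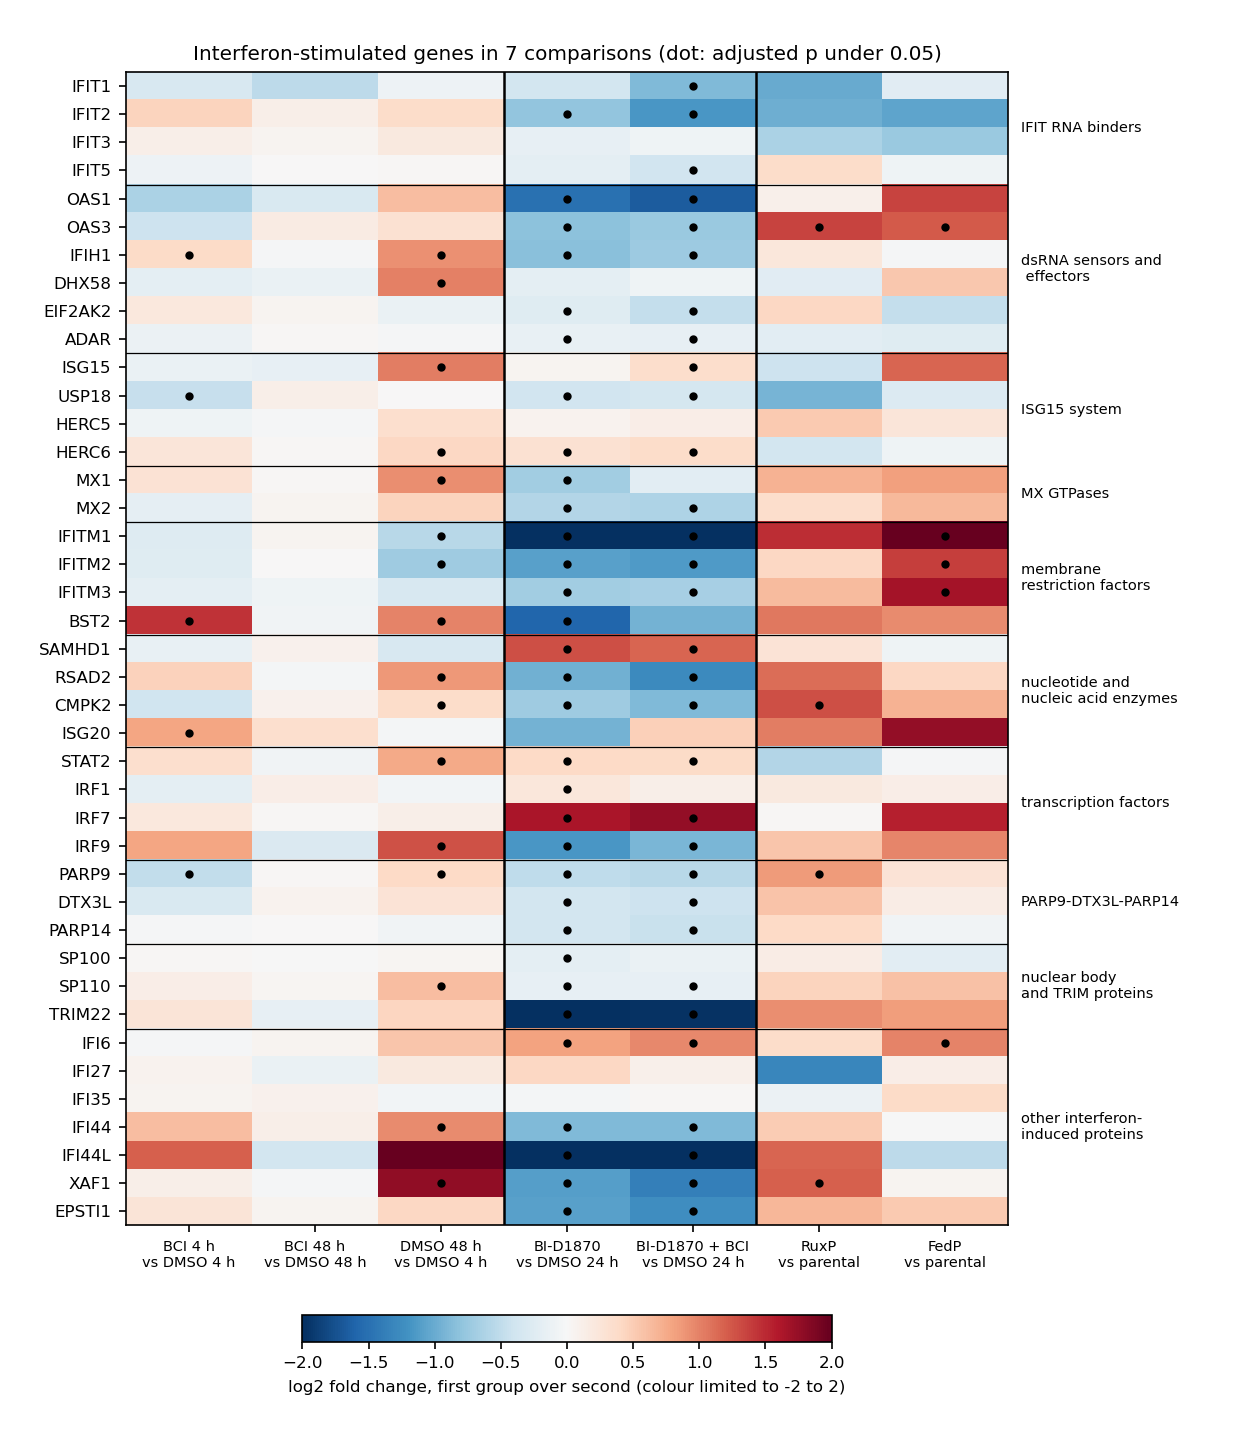
Log2 fold change (colour, first group over second, limited to -2 to 2) of the 41 tested genes, in rows by role, in 7 comparisons in columns, with a dot where the edgeR adjusted p was under 0.05. Dots are dense under BI-D1870 and the pair, where 26 and 25 genes fell and 6 each rose, and absent for BCI at 48 h.

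BI-D1870 lowered most of the set within 24 h, while a few of its regulators moved the other way. Of 41 genes tested, 26 fell and 6 rose at an edgeR adjusted p under 0.05, which is 78.0%, against 47.1% of all genes tested (24.3% lower, 22.8% higher). The median log2 fold change of the set was -0.38, against -0.014 over all genes. All 4 membrane restriction factors, both MX GTPases, all 3 genes of the PARP9, DTX3L and PARP14 group, all 3 nuclear body and TRIM genes and 5 of 6 tested double-stranded RNA sensors and effectors fell. Of the 4 transcription factors, 3 rose.

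Among membrane proteins, IFITM1 had 3.31 and 2.52 CPM under BI-D1870, against 18.2 and 17.3 CPM in DMSO. This was a 6.11-fold fall (log2 fold change -2.61, SE 0.133, edgeR adjusted p = 5.18e-12), and every treated library lay far below every control library. IFITM2 had 89.2 and 85.6 CPM under BI-D1870, against 198 and 174 CPM in DMSO. IFITM3 averaged 41.6 ± 0.862 CPM under BI-D1870 and 67.4 ± 3.23 CPM in DMSO (SD, n = 2 each). BST2, or tetherin, which holds budding virions at the cell surface, was scarce, at 0.187 and 0.473 CPM under BI-D1870, against 1.15 and 0.868 CPM in DMSO, and its call was lost without BI-D1870 replicate 1.

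The largest fold change belonged to IFI44L, a gene of unsettled function. It had only 2 and 6 counts under BI-D1870, against 36 and 57 counts in DMSO (log2 fold change -3.52, SE 0.813, edgeR adjusted p = 0.00129). TRIM22, a ubiquitin ligase that restricts viral transcription, fell by 2.00 on the log2 scale, with 1.31 and 1.54 CPM under BI-D1870, against 5.79 and 5.67 CPM in DMSO. The treated and control libraries of both genes were well apart. IFI44, a relative of IFI44L, had 13.4 and 14.2 CPM under BI-D1870, against 26.3 and 24.7 CPM in DMSO.

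The RNA sensing arm was also lower. OAS3, which makes the 2-5A messenger that activates RNase L, had 46.4 and 43.8 CPM under BI-D1870, against 80.4 and 79.0 CPM in DMSO (log2 fold change -0.82, SE 0.0528, edgeR adjusted p = 1.42e-10). OAS1, a smaller synthetase of the same family, had 0.580 and 0.851 CPM under BI-D1870, against 2.19 and 1.87 CPM in DMSO. IFIH1, the sensor MDA5, had 11.6 and 12.1 CPM under BI-D1870, against 21.3 and 21.0 CPM in DMSO. In none of the 3 did the groups overlap. Here, above and below, overlap was looked at in genes of the set only, mostly ones already called, without its share over all genes tested. Overlap or its absence describes values and adds no weight to a call. Changes of EIF2AK2 and ADAR were smaller, at log2 fold changes of -0.25 and -0.15, and the regulator DHX58 did not pass (log2 fold change -0.20, edgeR adjusted p = 0.249). The libraries of DHX58 did not overlap between the groups either.

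Of the remaining large changes, RSAD2, or viperin, which makes a chain-terminating nucleotide, had 8.29 and 7.78 CPM under BI-D1870, against 14.9 and 16.3 CPM in DMSO. XAF1, a proapoptotic partner of XIAP, had 1.14 and 1.12 CPM under BI-D1870, against 2.34 and 2.51 CPM in DMSO. EPSTI1 had 8.35 and 9.96 CPM under BI-D1870, against 21.4 and 17.7 CPM in DMSO. All 3 fell without overlap. The exons of XAF1 share 2535 bases with the antisense gene PRAL in GENCODE 29, and since the strand setting of the counting is not given in the sources used here, reads of the pair may be mixed.

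IRF7, the transcription factor that amplifies type I interferon production, rose against the trend. It had 46.4 and 45.9 CPM under BI-D1870, against 14.4 and 15.2 CPM in DMSO, a 3.11-fold rise (log2 fold change 1.64, SE 0.0659, edgeR adjusted p = 1.54e-13). STAT2 and IRF1 also rose, by log2 fold changes of 0.40 and 0.23. IRF9, the DNA-binding partner of ISGF3, fell, with 0.505 and 0.741 CPM under BI-D1870, against 1.30 and 1.51 CPM in DMSO. In these libraries the parts of ISGF3 in the set moved in opposite directions, with STAT2 at 98.5 ± 2.10 CPM under BI-D1870 and 74.6 ± 1.86 CPM in DMSO. The fall of IRF9 rests on 27 and 47 counts under BI-D1870, against 71 and 92 in DMSO. Its call was lost without BI-D1870 replicate 1.

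SAMHD1, which hydrolyses deoxynucleotides, and IFI6 were the other large rises. SAMHD1 had 31.8 and 29.1 CPM under BI-D1870, against 12.6 and 12.2 CPM in DMSO (log2 fold change 1.29, SE 0.0741, edgeR adjusted p = 2.61e-11). IFI6 had 46.0 and 46.6 CPM under BI-D1870, against 27.0 and 26.2 CPM in DMSO. Both sets of libraries stood clearly apart. SAMHD1 shares 1159 exon bases with TLDC2 on the opposite strand. IRF1 shares 2185 with C5orf56 and AC116366.3, and SP110 shares 1432 with SP140 and AC009950.1, so reads of these genes may be mixed too. The ISG15 system was split, since the ligase relative HERC6 rose (log2 fold change 0.31), the deconjugating protease USP18 fell (-0.38), and ISG15, the ubiquitin-like modifier itself, was at 15.2 and 14.8 CPM under BI-D1870 and 14.8 and 14 CPM in DMSO. Among genes that did not pass, IFIT5, IFIT3 and HERC5 had log2 fold changes of -0.19, -0.16 and 0.07.

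**Figure D2:**
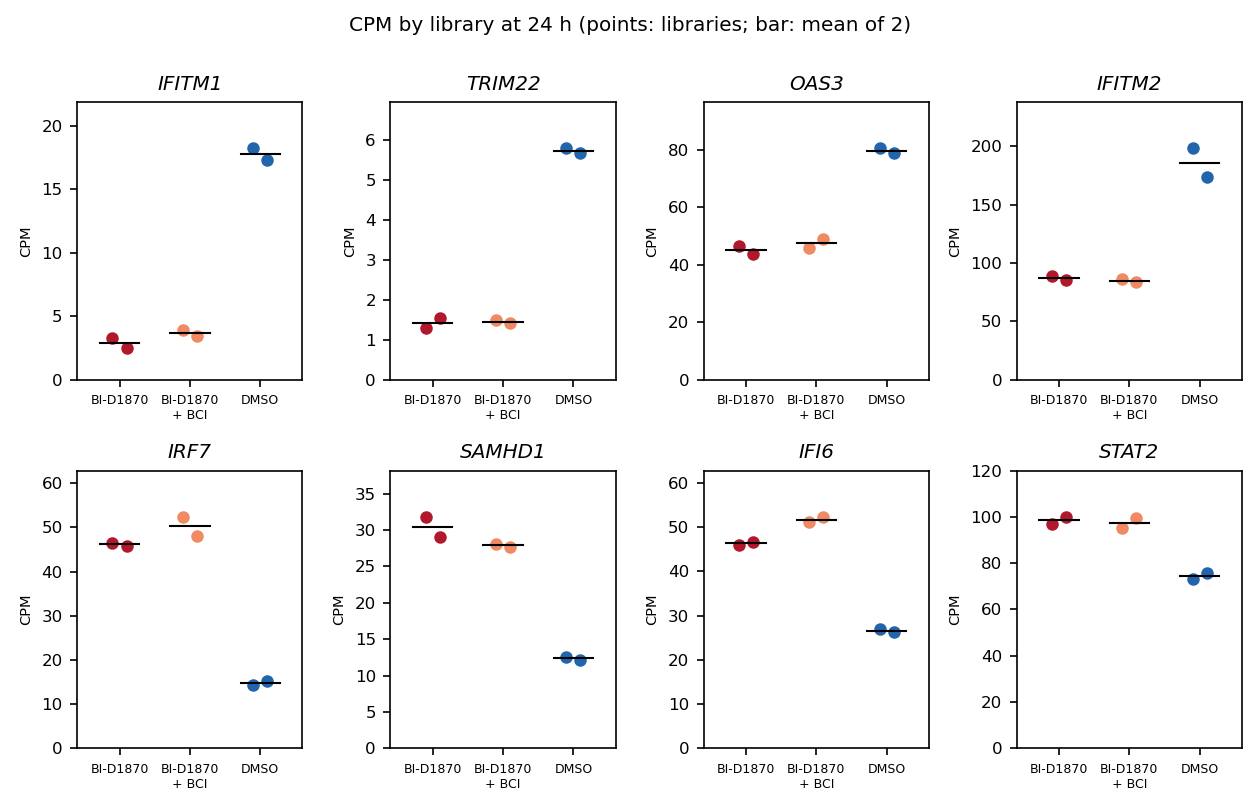
CPM (linear axis from 0) of 8 genes in each library at 24 h, grouped left to right as BI-D1870, BI-D1870 with BCI, and DMSO, with points for the 2 libraries and a bar for their mean. IFITM1, TRIM22, OAS3 and IFITM2 lie lower in both treated groups than in DMSO, and IRF7, SAMHD1, IFI6 and STAT2 lie higher.

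Of the genes above, the letters of the ISRE stood in 14 of the 21 that fell and have a promoter window and in 1 of the 5 that rose, IFI6. It also stood in 7 of the 8 that did not pass and have a window. Of 39 tested interferon-stimulated genes outside the set, 18 fell and 6 rose, where 24.3% of all genes fell and 22.8% rose, with the guanylate-binding protein GBP1 at a log2 fold change of -2.68, RTP4 at -2.11 and GBP2 at -1.66, while HELZ2 was at 2.23. Of 8 tested kinase and STAT genes 4 rose and 3 fell, with a median log2 fold change of 0.15. JAK1 was at a log2 fold change of 0.43, STAT5A at -0.96, STAT5B at -0.63 and STAT6 at -0.50. Of 13 tested sensors and adaptors, 6 fell and 2 rose, led by the kinase IKBKE at -1.06 and STING1 (listed as TMEM173) at -1.04. Among inhibitors 4 fell and 3 rose, with SOCS3 at -0.69. The 7 lymphoid markers summed to 5.77 to 5.86 CPM under BI-D1870 and 21.6 to 23.6 CPM in DMSO. Of these, 4 stayed under 1 CPM in every library, with CD3D and MS4A1 at 0. The 4 plasmacytoid dendritic cell markers, 3 of them under 1 CPM throughout, summed to 1.92 to 2.34 CPM under BI-D1870 and 0.712 to 1.03 CPM in DMSO. Erythroid and megakaryocyte markers summed to 5020 to 5120 CPM under BI-D1870 and 6170 to 6390 CPM in DMSO. Mitochondrial transcripts took 6.17 and 6.2% of counts under BI-D1870, 5.72 and 5.28% with the pair, and 3.58 and 3.64% in DMSO. The part of these shifts in the result was not tested. A minimum change of 1.5-fold left 21 of the 32 calls. Under the other alternatives, and with any library left out, 23 of the 32 held. The other 9 were ADAR, USP18, HERC6, MX1, BST2, IRF1, IRF9, SP100 and SP110.

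Adding BCI to BI-D1870 left this picture largely as it was. The pair against DMSO gave 25 genes lower and 6 higher of 41, or 75.6%, against 46.8% of all genes tested (24.3% lower, 22.6% higher), with a median log2 fold change of -0.44 against -0.005 over all genes. This comparison shares its DMSO libraries with the one above, so the values are set side by side without a test of likeness. IFITM1 had 3.94 and 3.42 CPM with the pair (log2 fold change -2.27), TRIM22 had 1.5 and 1.42 CPM (-1.97), and OAS3 had 46.0 and 48.8 CPM (-0.75). IRF7 was at 52.4 and 48.1 CPM (log2 fold change 1.76, SE 0.0654, edgeR adjusted p = 5.13e-14), SAMHD1 at 28.1 and 27.7 CPM and IFI6 at 51.1 and 52.3 CPM. None of these 6, all of them called, overlapped DMSO, which adds no weight to the calls. IFI44L had 10 and 0 counts with the pair.

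Further down the order, OAS1 had 0.677 and 0.604 CPM with the pair (log2 fold change -1.66), XAF1 0.927 and 0.956 CPM (-1.36), RSAD2 6.71 and 6.24 CPM (-1.27) and EPSTI1 8.59 and 7.80 CPM (-1.25). IFIT2, which binds AU-rich RNA, fell to 3.06 and 2.33 CPM with the pair, against 6.38 and 5.78 CPM in DMSO (log2 fold change -1.17, SE 0.162, edgeR adjusted p = 5.21e-06). IFITM2 had 86.5 and 83.5 CPM with the pair, IRF9 0.809 and 0.689 CPM and IFI44 14.2 and 13.4 CPM. IFIT1, which recognises RNA caps lacking 2′-O-methylation, was below 1 CPM with the pair, at 0.780 and 0.562 CPM, against 1.57 and 0.917 CPM in DMSO. All of these fell, and none of their treated libraries reached a control library, but the calls of IFIT1 and IRF9 were lost with DESeq2 and with single libraries left out. IFIT5, USP18, HERC6 and SP110 were the other calls of the pair that were lost under some alternative beside the 1.5-fold minimum. Among genes at 1 CPM or more on average, the largest changes that did not pass were those of MX1, HERC5, SP100 and IRF1, at log2 fold changes of -0.21, 0.13, -0.13 and 0.11.

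The pair was also compared directly with BI-D1870 alone. Only 2 of 41 genes (4.88%) differed, against 4.71% of all genes tested (2.22% higher, 2.48% lower). ISG15 was higher with the pair, at 18.8 and 18.0 CPM, against 15.2 and 14.8 CPM under BI-D1870 alone (log2 fold change 0.29, SE 0.0802, edgeR adjusted p = 0.0408). EIF2AK2 was lower with the pair, at 133 and 120 CPM, against 150 and 145 CPM under BI-D1870 alone (log2 fold change -0.22, SE 0.0504, edgeR adjusted p = 0.0143). Groups did not overlap for either gene, yet neither call held when BI-D1870 replicate 1 or 2, or pair replicate 2, was left out. Differences of IFITM1 (log2 fold change 0.34), IRF7 (0.12) and OAS3 (0.07) did not pass, nor did those of MX1 (0.49), IFIT2 (-0.38) and RSAD2 (-0.31). Outside the set, 3 of 39 tested interferon-stimulated genes were lower with the pair and 1 was higher. GBP1 fell further (-0.94) and STING1 was higher (0.53).

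After 4 h of BCI alone, 3 of 41 genes rose and 2 fell, or 12.2%, a share close to the 10.7% of all genes tested (4.80% higher, 5.94% lower). DESeq2 called 9 of the 41, and a fit to the compared groups alone called 18, of which 8 were higher and 10 lower. In the fit to all groups BST2 had the largest called change, and the median log2 fold change was 0.03 against 0.02 over all genes. BST2 rose, with 4.11 and 3.79 CPM under BCI, against 1.23 and 1.68 CPM in DMSO (log2 fold change 1.44, SE 0.200, edgeR adjusted p = 0.00212). Its raw counts were 290 and 280 under BCI, against 76 and 104 in DMSO, so the groups were far apart. It kept its call under every alternative run and with any library left out.

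The exonuclease ISG20 rose as well, with 3.20 and 2.71 CPM under BCI for 4 h, against 1.83 and 1.59 CPM in DMSO. IFIH1 had 12.8 and 14.7 CPM under BCI, against 10.3 and 10.6 CPM in DMSO (log2 fold change 0.39, edgeR adjusted p = 0.0491). PARP9, which acts with DTX3L in interferon signalling and DNA repair, fell, with 15.9 and 18.4 CPM under BCI, against 24.8 and 23.2 CPM in DMSO. USP18, which also shuts off the interferon receptor, fell to 7.49 and 7.98 CPM under BCI, against 10.5 and 10.8 CPM in DMSO. Groups did not overlap for any of the 4, but with DMSO 4 h replicate 1 or 2, or BCI 4 h replicate 1 or 2, left out, only the BST2 call was made. Without DMSO 48 h replicate 1 or 2, which share the model, 10 and 11 genes were called. OAS3 (log2 fold change -0.42, edgeR adjusted p = 0.0832), IFITM1 (-0.26) and IRF7 (0.21) did not pass, nor did IRF9 (0.79), OAS1 (-0.64), IFI44 (0.61) and RSAD2 (0.46). Libraries of IRF9, OAS1, IFI44 and RSAD2 did not overlap between the groups either. Among further interferon-stimulated genes 7 of 39 rose and 3 fell, led by GBP3 at a log2 fold change of 1.84 and APOL2 at 0.82, and STAT5A (-0.61), STAT3 (-0.56) and the inhibitor SOCS3 (-1.15) fell.

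After 48 h of BCI edgeR called none of the 41 genes, and it called 0% of all genes tested. None of the 41 had an unadjusted p under 0.05, and DESeq2 called 0. BST2 was then at 2.86 and 2.68 CPM under BCI and 2.83 and 2.98 CPM in DMSO, with overlap. OAS3 had 80.4 and 72.4 CPM under BCI and 78.0 and 57.6 CPM in DMSO, IFITM1 averaged 28.5 ± 0.784 CPM under BCI and 27.3 ± 1.89 CPM in DMSO, and IRF7 averaged 20.2 ± 1.31 CPM under BCI and 19.8 ± 0.261 CPM in DMSO (SD, n = 2 each). The largest log2 fold changes of genes at 1 CPM or more were 0.33 for ISG20, -0.31 for OAS1 and -0.29 for IRF9. When the response at 48 h was tested against that at 4 h, BST2 alone of 41 differed (2.44%, against 3.46% of all genes tested, 2.08% upwards and 1.37% downwards), by -1.5 on the log2 scale (SE 0.277, edgeR adjusted p = 0.0208). The difference was -1.09 for IRF9 and 0.59 for OAS3, and neither passed. This BST2 call was lost when DMSO 4 h replicate 1 or 2, BCI 4 h replicate 1 or 2, or BCI 48 h replicate 2 was left out, and 6 genes were called without DMSO 48 h replicate 1.

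**Figure D3:**
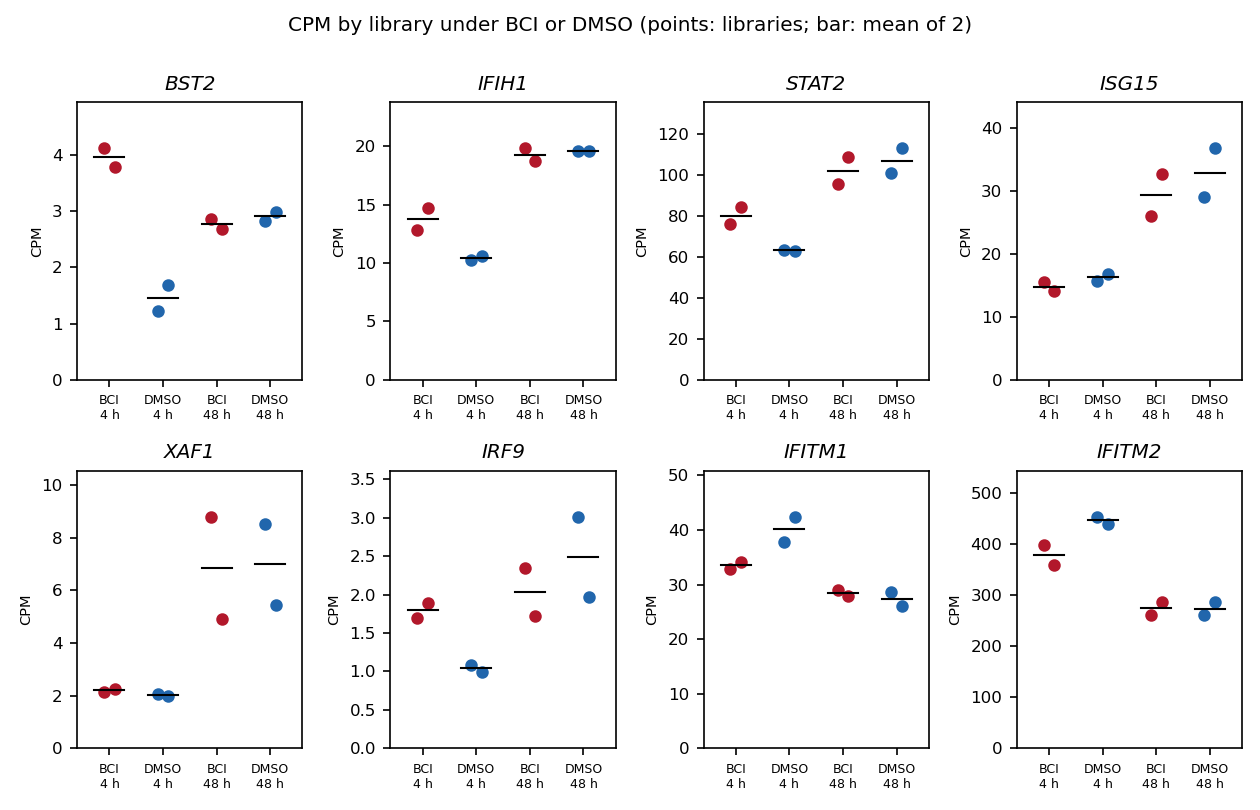
CPM (linear axis from 0) of 8 genes in each library under BCI and DMSO at 4 h and 48 h, with points for the 2 libraries of a group and a bar for their mean. BST2 lies higher under BCI than in DMSO at 4 h, and XAF1, IRF9, ISG15 and STAT2 lie higher at 48 h in DMSO than at 4 h.

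Part of the set also differed with time in culture. In DMSO alone, 14 of 41 genes were higher at 48 h than at 4 h and 2 were lower, or 39.0%, against 26.6% of all genes tested (13.5% higher, 13.2% lower). The median log2 fold change was 0.37, against 0.035 over all genes. XAF1 had 8.52 and 5.46 CPM at 48 h, against 2.08 and 1.99 CPM at 4 h (log2 fold change 1.78, SE 0.298, edgeR adjusted p = 0.00261). IRF9 had 3.01 and 1.97 CPM at 48 h, against 1.09 and 0.987 CPM at 4 h. STAT2, its partner, had 101 and 113 CPM at 48 h, against 63.5 and 63.0 CPM at 4 h. These 3 rose without overlap.

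ISG15 had 29.1 and 36.8 CPM at 48 h, against 15.8 and 16.8 CPM at 4 h (log2 fold change 1.02, SE 0.147, edgeR adjusted p = 0.00133). The RNA sensors DHX58 (14.6 and 14.2 CPM at 48 h, against 6.40 and 7.93 CPM at 4 h) and IFIH1 (19.6 and 19.6 CPM, against 10.3 and 10.6 CPM) rose as well. BST2, with 2.83 and 2.98 CPM at 48 h, against 1.23 and 1.68 CPM at 4 h, reached in DMSO a level between those of BCI and DMSO at 4 h. Each of these genes had all 48 h libraries above all 4 h libraries. IFI44 had 14.8 and 11.1 CPM at 48 h, against 7.18 and 6.23 CPM at 4 h, and RSAD2 had 8.86 and 9.26 CPM, against 5.53 and 4.43 CPM. MX1, a GTPase that traps viral nucleocapsids, had 3.80 and 3.56 CPM at 48 h, against 2.11 and 1.75 CPM at 4 h. SP110 had 28.3 and 27.0 CPM at 48 h, against 18.1 and 18.2 CPM at 4 h. Rises of HERC6, PARP9 and CMPK2 were smaller, at log2 fold changes of 0.41, 0.40 and 0.37. The ISRE letters stood in 7 of the 13 risen genes with a promoter window and in 14 of the 20 not called. They also stood in IFITM1, the 1 gene that fell and has a window.

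The IFITM genes were lower at 48 h, and IFITM1 and IFITM2 were called. IFITM2 fell to 261 and 287 CPM at 48 h, against 454 and 440 CPM at 4 h (log2 fold change -0.71, SE 0.0864, edgeR adjusted p = 0.000604), and IFITM1 fell to 28.6 and 26.0 CPM, against 37.8 and 42.4 CPM. Neither overlapped. IFITM3 averaged 92.6 ± 12.5 CPM at 48 h and 116 ± 4.04 CPM at 4 h (SD, n = 2 each) and did not pass (log2 fold change -0.32, edgeR adjusted p = 0.0608). With trends in GC content and length removed, IFITM3 passed as well (log2 fold change -0.44, edgeR adjusted p = 0.0027). OAS3 (log2 fold change 0.30) and IRF7 (0.11) did not pass, nor did OAS1 (0.62), IFI6 (0.55), MX2 (0.45) and TRIM22 (0.43). Of 39 further interferon-stimulated genes, 16 were higher at 48 h and 3 were lower, and JAK2 itself was higher (log2 fold change 0.70). Without DMSO 4 h replicate 2 the number of calls fell to 9, and a minimum change of 1.5-fold left 12. Under the other alternatives 8 of the 16 held: IFIH1, DHX58, ISG15, IFITM1, IFITM2, STAT2, SP110 and XAF1. Reads of SP110 and XAF1 may be mixed with those of genes on the opposite strand. The 7 lymphoid markers, 4 of them under 1 CPM in every library, summed to 25.9 to 29.1 CPM at 48 h and 18.1 to 20.6 CPM at 4 h. Of these markers CD2 (log2 fold change 0.80) and NKG7 (1.26) were higher and CD79A (-0.41) lower, and their part in the result was not tested.

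In persistent cells a few genes were higher than in parental cells and none was lower. In FedP cells 5 of 41 rose (12.2%), against 6.63% of all genes tested (3.84% higher, 2.79% lower), with a median log2 fold change of 0.28 against 0.011 over all genes. Of these, 3 were the IFITM genes. IFITM1 had 33.4 and 33.6 CPM in FedP cells, against 6.87 and 3.91 CPM in parental cells, a 6.21-fold rise (log2 fold change 2.63, SE 0.407, edgeR adjusted p = 0.0200). IFITM3 had 145 and 133 CPM in FedP cells, against 57.9 and 29.2 CPM in parental cells (log2 fold change 1.67, SE 0.363, edgeR adjusted p = 0.0499). IFITM2 had 443 and 412 CPM in FedP cells, against 206 and 122 CPM in parental cells. The FedP libraries lay close together and above both parental libraries, which were themselves well apart.

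OAS3 rose to 38.1 and 39.0 CPM in FedP cells, against 17.9 and 15.2 CPM in parental cells (log2 fold change 1.22, SE 0.183, edgeR adjusted p = 0.0187). IFI6 had 29.6 and 27.6 CPM in FedP cells, against 15.8 and 12.9 CPM in parental cells. Both were free of overlap. IRF7 had 23.9 and 22.9 CPM in FedP cells, against 11.4 and 4.44 CPM in parental cells, and did not pass (log2 fold change 1.56, SE 0.419, edgeR adjusted p = 0.0844). Nor did OAS1 (log2 fold change 1.35), ISG15 (1.17) and IFIT2 (-1.06). Of the 4 risen genes with a promoter window, IFI6, IFITM1, IFITM3 and OAS3, all held the ISRE letters, as did 18 of the 30 that were not called and have a window. Among inhibitors of the pathway SOCS1 (log2 fold change 2.58) and SOCS3 (2.10) rose, STING1 (1.35) and the interferon-gamma receptor subunit IFNGR2 (1.36) rose, and JAK1 fell (-0.82), while none of 39 further interferon-stimulated genes was called. The 6 epithelial and stromal markers summed to 33.6 to 38.6 CPM in FedP cells and 10.2 to 10.4 CPM in parental cells, and the 6 monocyte and macrophage markers to 112 to 113 CPM in FedP cells and 83.7 to 90.7 CPM in parental cells. In every library of persistent and parental cells, 2 of the former and 3 of the latter stayed under 1 CPM. Of 4 tested epithelial and stromal markers 2 were called higher in FedP cells, and of 4 tested monocyte and macrophage markers 0 were called. The part of both marker lists in the result was not tested.

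In RuxP cells 4 of 41 genes rose (9.76%), against 6.44% of all genes tested (4.28% higher, 2.17% lower), and the median log2 fold change was 0.40 against -0.041 over all genes. OAS3 had 37.8 and 46.9 CPM in RuxP cells, against 17.9 and 15.2 CPM in parental cells (log2 fold change 1.35, SE 0.184, edgeR adjusted p = 0.0128). CMPK2, a mitochondrial nucleotide kinase encoded beside RSAD2, had 37.6 and 31.6 CPM in RuxP cells, against 13.5 and 14.9 CPM in parental cells. XAF1 had 24.4 and 19.2 CPM in RuxP cells, against 8.09 and 11.1 CPM in parental cells, and PARP9 had 30.9 and 29.6 CPM, against 15.1 and 18.5 CPM. No RuxP library of these genes overlapped a parental one. The ISRE letters stood in 2 of these 4, OAS3 and PARP9, and in 20 of the 30 that were not called and have a window. IFITM1 had 10.2 and 20 CPM in RuxP cells, against 6.87 and 3.91 CPM in parental cells, and did not pass (log2 fold change 1.48, edgeR adjusted p = 0.0829). IRF7 had 7.40 and 8.71 CPM in RuxP cells, within the range of parental cells, and RSAD2 (log2 fold change 1.12), BST2 (1.06) and IFIT2 (-0.97) did not pass. Outside the set, 3 of 39 tested interferon-stimulated genes rose and 1 fell, with a median log2 fold change of 0.01. TNFSF10, or TRAIL, rose most (3.65), with GBP1 at 1.41. Erythroid and megakaryocyte markers summed to 2360 to 2730 CPM in RuxP cells and 3700 to 5480 CPM in parental cells, and epithelial and stromal markers to 19.3 to 19.4 CPM in RuxP cells and 10.2 to 10.4 CPM in parental cells. Of 4 tested epithelial and stromal markers 1 was called higher in RuxP cells. Of 11 tested erythroid and megakaryocyte markers 1 was called higher and 2 lower. The part of both marker lists in the result was not tested.

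OAS3 was the one gene called in both persistent lines, which share their parental libraries. Between FedP and RuxP cells edgeR called none of 41 genes, against 1.39% of all genes tested (0.232% higher, 1.16% lower), although 17 of the 41 had an unadjusted p under 0.05 and DESeq2 called 10. ISG15 had 25.8 and 24.3 CPM in FedP cells, against 7.70 and 9.02 CPM in RuxP cells (log2 fold change 1.58, edgeR adjusted p = 0.0867). Among genes at 1 CPM or more on average, IRF7 (1.54), OAS1 (1.25) and IFITM1 (1.15) had the next largest changes, and OAS3 was at -0.14. Without either parental library, 15 genes passed.

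**Figure D4:**
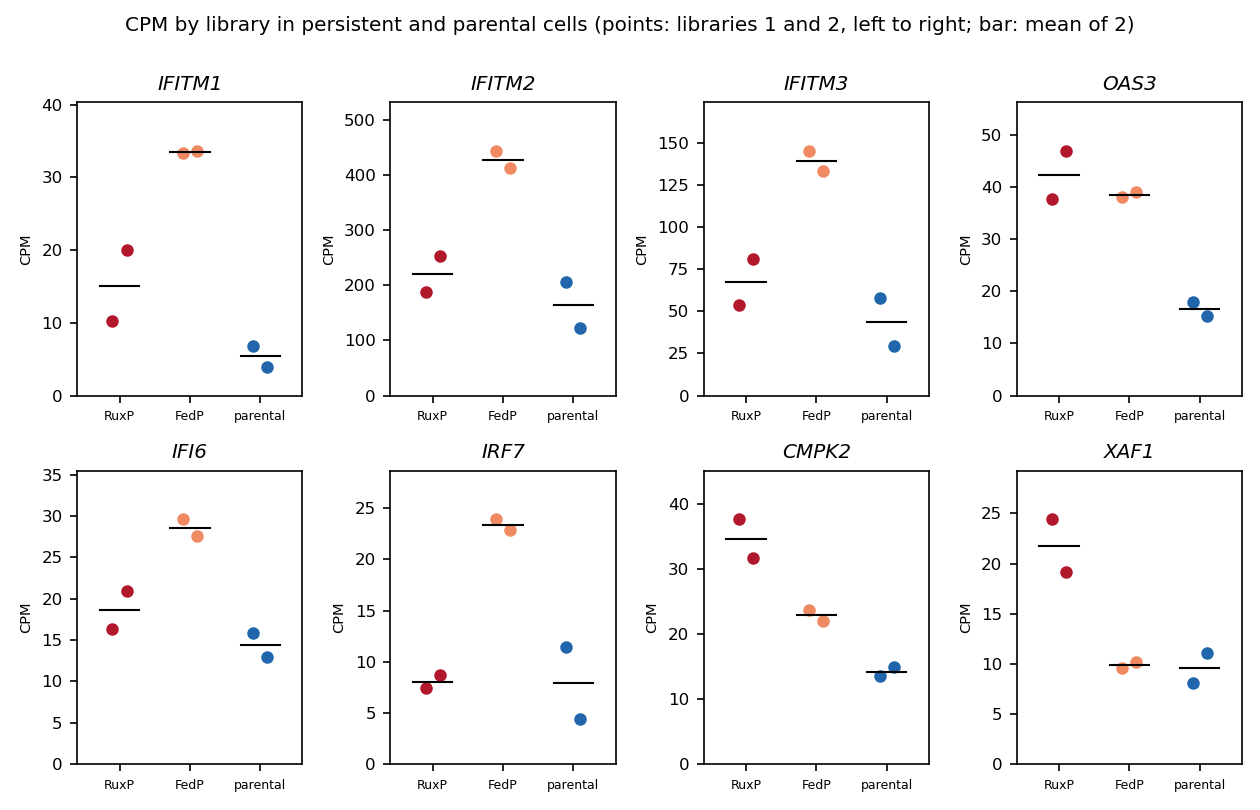
CPM (linear axis from 0) of 8 genes in each library of RuxP, FedP and parental cells, left to right, with points for libraries 1 and 2 and a bar for their mean. The 2 FedP libraries lie together, at 33.4 and 33.6 CPM for IFITM1, while parental libraries differ, at 11.4 and 4.44 CPM for IRF7.

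The 2 parental libraries differed along the GC content of transcripts, and these genes followed. The log2 ratio of parental library 2 over library 1, computed from CPM with a prior count of 2, ran from -1.36 for IRF7, with a GC content of 66.85%, to 0.91 for IFIT1, and its correlation with GC content over the 41 genes was r = -0.87 (Spearman rho -0.85). For RuxP libraries r was 0.28 (Spearman rho 0.47), over a range of -1.01 to 3.29. For FedP libraries r was -0.38 (Spearman rho -0.41), over a range of only -0.37 to 0.22. These describe genes that share the same pair of libraries and are not independent. Over all genes, RuxP libraries also differed with GC content, in the direction opposite to parental libraries. Their median log2 ratio was -0.153 at low GC content (cut at 44.1%) and 0.382 at high GC content (cut at 53.9%). In parental cells these medians were 0.413 and -0.667, and in FedP cells 0.0268 and -0.0451. With trends in GC content and length removed, an alternative chosen after seeing this, 14 genes rose and 4 fell in RuxP cells and 14 rose in FedP cells, including all 4 and all 5 genes above. IRF7 then passed in both lines, at log2 fold changes of 0.66 in RuxP cells and 0.99 in FedP cells (edgeR adjusted p = 0.026 and 0.0051). IFIT2, IFIT3, STAT2 and USP18 were the 4 that fell in RuxP cells. Between the lines CMPK2, OAS3 and XAF1 were then lower and STAT2 higher in FedP cells than in RuxP cells. Calls against parental cells depended on single libraries: for RuxP they numbered 0 without RuxP replicate 1, 1 without RuxP replicate 2, 2 without either FedP library, 7 without parental replicate 1 and 13 without parental replicate 2. For FedP they numbered 1 without either FedP library, 3 without either RuxP library or parental replicate 2, and 14 without parental replicate 1. A replicate block ended all 9 calls, although nothing in the labels pairs the libraries. Mitochondrial transcripts took 23.1 to 25.7% of counts in RuxP cells, 12.4 to 12.6% in FedP cells and 15.6 to 23.6% in parental cells, and their part in these values was not tested.

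**Figure D5:**
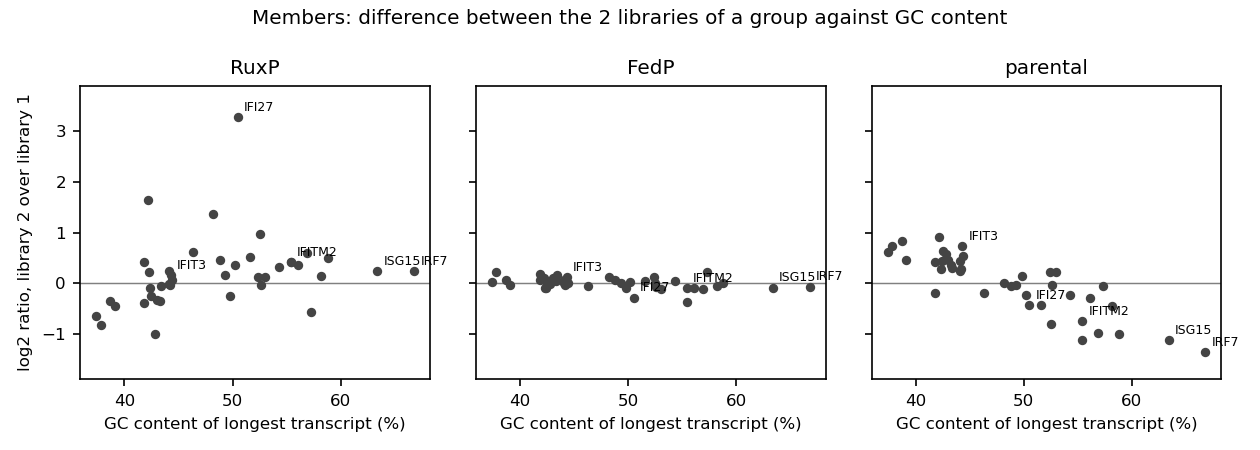
Log2 ratio of library 2 over library 1 (y axis) against GC content of the longest transcript in percent (x axis) for the 41 tested genes, in panels for RuxP, FedP and parental cells, with 5 genes named. The parental points slope downwards (r = -0.87), and the FedP points lie near 0.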

How the data were processed

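Raw counts per gene in 3 tables were deposited by the authors. Per the submitters' processing notes, bcl2fastq, STAR 2.5.1a, GRCh38 and edgeR were used. No source used here names the annotation, the counting program or its strand setting. Among counts of 1 to 20, 59.8 to 73.1% were even, depending on the library, so the 2 reads of a fragment may have been counted apart. Columns headed 24h in the BCI table are labelled 48 h, and the labels were followed.

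Each table is 1 flow cell lane per the labels and was analysed alone in R 4.3.3 with edgeR 4.0.16: filterByExpr by group, TMM scaling, 1 quasi-likelihood model over all its groups, and Benjamini-Hochberg adjustment over all genes tested, with calls at an adjusted p under 0.05. CPM use TMM library sizes. A standard error (SE) is the size of a log2 fold change divided by the square root of its F. Exon lengths, GC content and positions are from GENCODE 29, promoters from RefSeq. The code was tested on simulated data. Alternatives were DESeq2 1.42.0, its size factors, no low-count filter, a fit to the compared groups alone, replicate number as a block, omission of 1 library at a time, a change of at least 1.5-fold and removal of GC content and length trends.

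Genes and lists were chosen with earlier results of these data known. In each comparison library values are given for up to 15 called genes by size of change, and up to 4 genes that did not pass are named, the largest changes among those with a mean of at least 1 CPM. IFITM1, OAS3 and IRF7 are always given, and further genes appear where a role group is described. The values of 1 gene of the pathway lists are not reported here.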

Additional observations from a re-analysis of the deposited data

Results flagged for a closer look

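The response of BST2 to BCI differed between the times. Its response at 48 h minus that at 4 h was -1.5 on the log2 scale (SE 0.277, edgeR interaction test, adjusted p = 0.0208), with a log2 fold change of 1.44 at 4 h, where both BCI libraries lay above both DMSO libraries. At 48 h BST2 was at 2.86 and 2.68 CPM under BCI and 2.83 and 2.98 CPM in DMSO. The call was lost in 5 of the 8 fits that left out a library, with a highest adjusted p of 0.13 by edgeR.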

How the results depend on the processing

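No called change of a named gene was reversed under any alternative run, but some log2 fold changes that had not passed changed sign. That of IRF7 in DMSO at 48 h against 4 h was -0.09 with GC trends removed. With a library left out, the changes at 48 h of BCI ran from -0.01 to 0.14 for IFITM1, from -0.03 to 0.42 for OAS3 and from -0.04 to 0.1 for IRF7. That of IRF7 in RuxP against parental cells ran from -0.52 (without parental replicate 2) to 0.89, and that of OAS3 in FedP against RuxP cells from -0.28 to 0.06. For BCI at 4 h the 5 calls became 8 without a low-count filter, 8 with a replicate block, 9 with DESeq2, 18 with only the groups compared and 2 at 1.5-fold or more, and 1 to 11 with a library left out. For the difference between the times, 1 call became 2 without the filter and 2 with DESeq2, and 0 to 6 with a library left out. For DMSO at 48 h against 4 h, leaving out a library gave 9 to 23 calls. For BI-D1870 and the pair, a 1.5-fold minimum left 21 and 20 calls, and leaving out a library gave 26 to 31 and 27 to 31. For the pair against BI-D1870, 0 calls were made with GC trends removed, 1 with DESeq2, 0 at 1.5-fold and 0 to 2 with a library left out. For RuxP the 4 calls became 7 without the filter, 18 with GC trends removed, 10 with DESeq2, 2 with only the groups compared and 0 to 13 with a library left out. For FedP the 5 calls became 14 with GC trends removed, 12 with DESeq2, 3 with only the groups compared and 1 to 14 with a library left out. For FedP against RuxP, 8 calls were made without the filter, 4 with GC trends removed, 10 with DESeq2, 15 with only the groups compared and 0 to 15 with a library left out. The causes were not tested.

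The replicate block left 0 calls for RuxP and 0 for FedP. Replicate numbers are shared in the labels only, and deviations of same-numbered libraries correlated between -0.222 (RuxP and parental) and 0.316 (BCI and DMSO at 48 h). With RuxP numbers crossed, an alternative added after seeing the data, the block gave 9 calls for RuxP. The 2 libraries per group limit every comparison. OAS2 and OASL had few counts and were not tested. IFI44L rests on few counts, as do BST2, IRF9, OAS1 and IFIT1 in the comparisons at 24 h.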

Other observations

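BI-D1870 and fedratinib persistence were measured in tables that share no library. Of the 26 genes that fell under BI-D1870 (15.4% of them) and the 5 that rose in FedP cells (80.0%), 4 were in both lists: IFITM1, IFITM2, IFITM3 and OAS3. How reads were divided among IFITM1, IFITM2 and IFITM3 is uncertain, so they are not separate observations. Of all 41 genes tested, 63.4% fell under BI-D1870. Over the 41 genes the sign of the change was opposite in 23 and the same in 18. Their log2 fold changes correlated at r = -0.19 (Spearman rho -0.27). The overlap of calls over all genes of the tables is not given here, so the overlap in the set has no such background. IFI6 rose under BI-D1870 and in FedP cells. All 5 FedP calls were lost with a replicate block. IFITM1 and IFITM2, which rose in FedP cells, fell with time in DMSO.

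IFI27, a mitochondrial protein often used as a marker of interferon exposure, differed between the 2 RuxP libraries, at 0.0402 and 0.667 CPM, and was at 1.08 and 0.874 CPM in FedP cells and 1.03 and 0.756 CPM in parental cells. It was under the floor of 3 counts in RuxP library 1.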
